A study of Drosophila melanogaster with 4 samples.

Results

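The genes described here encode 3 families of detoxifying enzymes, the cytochrome P450s (Cyp), the glutathione S-transferases (Gst of the D, E, S, O, T and Z classes) and the UDP-glycosyltransferases (Ugt), in heads of untreated Drosophila melanogaster males. Members were chosen by their current gene symbol and by a measured value on at least 3 of 4 arrays, without Cyp4d21. The rule did not use the size or direction of a value, but it was set with earlier results of these data known. The rule left 38 genes of the 2406 named genes measured on at least 3 arrays, of which 25 were Cyp, 10 were Gst and 3 were Ugt genes. The arrays were the NF-NF controls (NF, normal food) of a study of flies fed the convulsant pentylenetetrazole, whose treated arrays were not analysed here. Each array compared heads of unmated Oregon-R wild type males in Cy5 with heads of like males in Cy3, kept at 24 °C in vials of 30 flies until 3 to 4 days old and given no drug. Before freezing the flies spent 12 h in the treatment vessel, except that the label of the Cy3 channel of replicate 1 states 6 h. By the study's description both pools of an array had the same strain, sex and food and no drug. The comparison was between pools of untreated flies. A pool held whole heads, with eyes, brain, fat body, muscle and cuticle, so fewer cells of a type and less RNA per cell cannot be told apart.

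P450s are heme monooxygenases that draw electrons from NADPH and insert an oxygen atom into steroids, fatty acids, plant toxins and insecticides. Glutathione S-transferases couple the tripeptide glutathione to reactive compounds, and UDP-glycosyltransferases add a sugar to small lipophilic molecules such as phenols and odorants, which makes both kinds of product easier to export. In insects the families are known for inducible expression in gut, Malpighian tubule and fat body, for insecticide resistance, and in the head for the clearance of odorants and for eye pigment chemistry.

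The deposited values were log2 ratios of Cy5 over Cy3, with values for 30.5%, 30.4%, 28.8% and 8.1% of 27648 spots on replicates 1 to 4 and array medians over clones of 0.14, 0.00, 0.08 and -0.69. Each value below is a centred log2 ratio, that is the log2 ratio minus the median of its array, averaged over the pair of spots of a clone and over the clones of a gene. A value above 0 means more signal in the pool labelled Cy5 by the sample records, relative to the array median. The methods state that a pair of the 4 slides were dye swaps but not which. Signs that differ between arrays may thus be a matter of dye. Signs that agree cannot be told apart from a dye effect of the gene that repeats on each array. Neither was tested. The number of arrays limits the precision, and p-values measure only the spread between these 4 arrays.

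Most of the enzyme genes on the slide had no value after the spot filters. Clones of 105 family members were spotted, and 38 of them (36.2%) were measured on at least 3 arrays, beside 35.4% of the 6792 named genes spotted. The share was 35.7% for Cyp (25 of 70), 43.5% for Gst (10 of 23) and 25% for Ugt (3 of 12). Of the remaining genes 66 had no value on any array, among them Cyp4g15, Cyp6a8, GstD2, GstE1, GstO1 and Ugt35A1. Cyp6a20, a P450 known for its role in male aggression, lay just outside the limit with values on replicates 1 and 2 alone, at -0.11 and 0.08. Of the 38 members 10 had values on all 4 arrays (7 Cyp, 2 Gst and 1 Ugt) and 28 on 3. A single clone had values on all 4 arrays for 8 members (5 Cyp, 2 Gst and 1 Ugt). The members measured numbered 38, 38, 36 and 12 on replicates 1 to 4, so most member means rest on replicates 1 to 3.

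No member passed the test of a mean ratio off the array median in the same direction over the arrays. The test does not cover pool differences whose sign changes between arrays, and it does not separate pools from dye. limma's test against 0 with Benjamini-Hochberg adjustment over all genes called 0 of 38 members and 0 of 2406 genes (0%) at an adjusted p under 0.05. At an unadjusted p under 0.05, limma listed 732 genes and 8 members, and all 8 had more signal in Cy5. These were Cyp313b1, Cyp6a22, Cyp6a21, Cyp4p1, Cyp6a18, GstD11, GstD4 and Ugt37B1. They made up 21.1% of the members, where 13.3% of all genes were higher at that p, and 0 members were lower, where 17.1% of all genes were. These directions hold for the signs as deposited. With the signs of replicates 2 and 4 turned, as a dye swap of those slides would ask, limma listed 1 member higher (Cyp12a5, 1.91% of all genes) and 4 lower (Cyp313a1, Cyp4ac1, Cyp4e2 and Cyp9f2, 3.74% of all genes) at an unadjusted p under 0.05. With replicates 2 and 3 or replicates 3 and 4 turned it listed 0 members in either direction, beside 0.0831% and 0.125% of all genes higher and 0.125% and 0.208% lower. limma called 0 genes at an adjusted p under 0.05 under each of the 3 turnings. Without replicate 4, limma called 215 genes (8.94%) and 1 member, Cyp313b1. One-class Significance Analysis of Microarrays (SAM), rebuilt on the centred gene values with 16 sign patterns and so not the study's own run, listed 40 higher genes (1.66%) and 153 lower genes (6.36%) at a false discovery rate of 0.05 or less, and the same member, Cyp313b1, was the 1 listed.

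Taken over the arrays, as many members lay above as below the median. The mean lay above the array median for 19 of 38 members (50%), beside 48.5% of all genes. Members above the median on every array with a value numbered 10 (26.3%), beside 24.1% of all genes. Members below it on every array numbered 5 (13.2%), beside 25.8% of all genes. The 5 were Cyp6a23, Cyp303a1, Cyp4d2, Cyp6u1 and GstT4, and their means ran from -0.13 to -0.05.

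**Figure D1:**
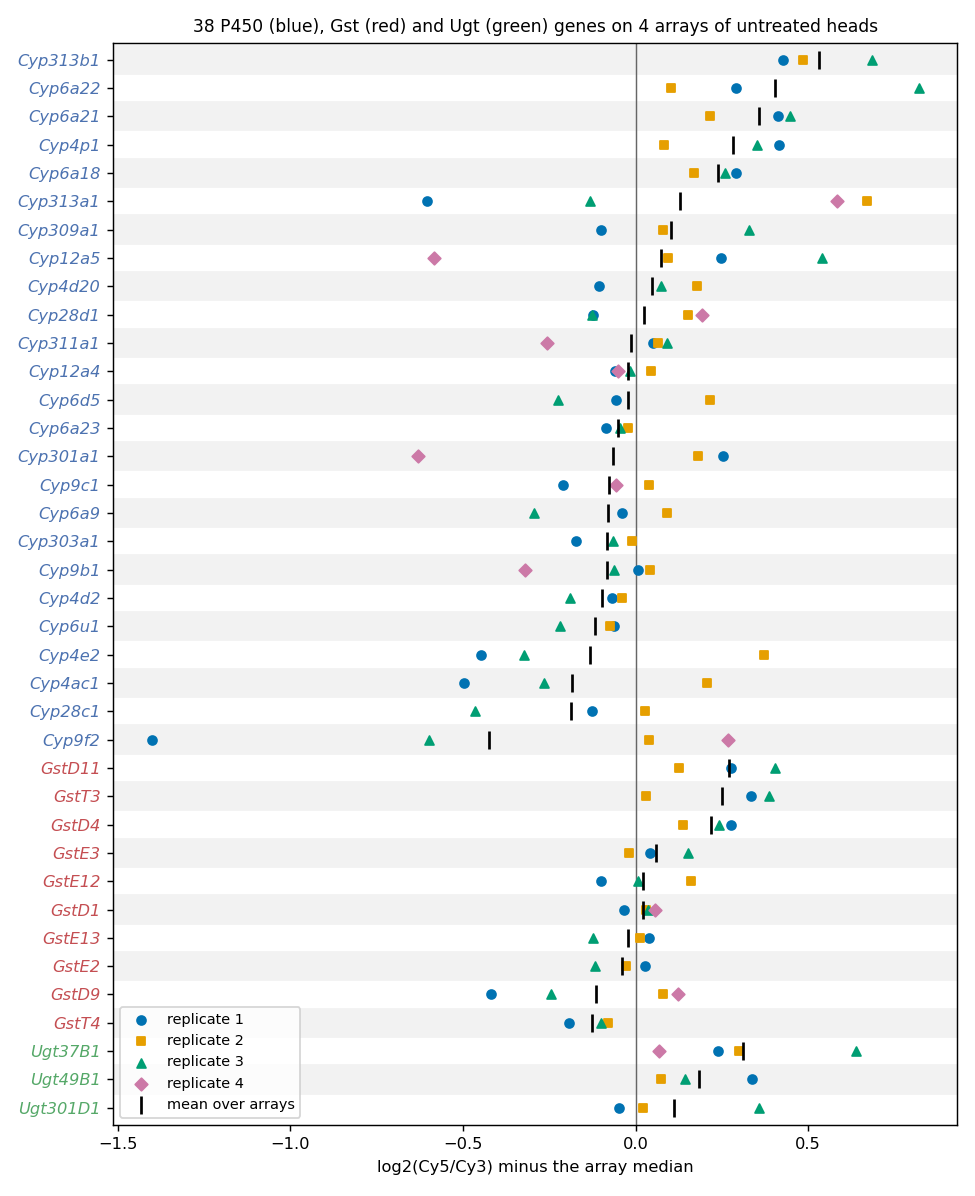
Centred log2(Cy5/Cy3) of the 38 enzyme genes on the 4 arrays of untreated head pools, with 1 symbol per array and a black tick at the mean, ordered by mean within each family. Means run from -0.42 (Cyp9f2) to 0.53 (Cyp313b1), and most genes lie within 0.5 of the array median on every array.

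The 3 families differed little from each other. The mean over Cyp genes was -0.07, 0.14, 0.02 and -0.10 on replicates 1 to 4, which gave -0.00 ± 0.11 (SD, n = 4 arrays). The mean over Gst genes was 0.02, 0.05, 0.06 and 0.09, which gave 0.06 ± 0.03 (SD, n = 4). The mean over the 3 Ugt genes was 0.18, 0.13, 0.38 and 0.07, which gave 0.19 ± 0.13 (SD, n = 4), and it rested on a single gene on replicate 4. Cyp minus Gst was -0.06 ± 0.12 (SD, n = 4) and changed sign between arrays, from -0.19 on replicate 4 to 0.09 on replicate 2. Cyp minus Ugt was -0.19 ± 0.15 (SD, n = 4), with the Ugt mean the higher on replicates 1, 3 and 4 and a difference of 0.00 on replicate 2. Gst minus Ugt was -0.13 ± 0.14 (SD, n = 4), with the Ugt mean the higher on replicates 1, 2 and 3. The family differences were thus of the size of their spread over arrays, and no test was made of them.

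On replicate 2 the P450 genes lay mostly on a single side. Of 25 Cyp genes 21 (84%) lay above the median of replicate 2, as did 31 of all 38 members (81.6%), beside 49.3% of all genes. Their values were small, with a Cyp median of 0.09 on replicate 2, where the middle range of all genes (25th to 75th percentile) was -0.13 to 0.11. On replicates 1, 3 and 4 the same family had 9 of 25, 9 of 23 and 3 of 9 genes above the median. After subtraction of the median of the 48 neighbouring clones in the table, 21 of 25 Cyp genes lay above 0 on replicate 2. The counts were 14 of 25, 13 of 23 and 4 of 9 on the other replicates. Around member clones those medians ran only from -0.10 to 0.08 on replicate 2, so the subtraction could change little there. The share of all genes above 0 was not taken on that scale. Members in all were above the median in 44.7% of cases on replicate 1 (48.5% of all genes), in 50% on replicate 3 (49.2%) and in 50% on replicate 4 (46.3%).

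**Figure D2:**
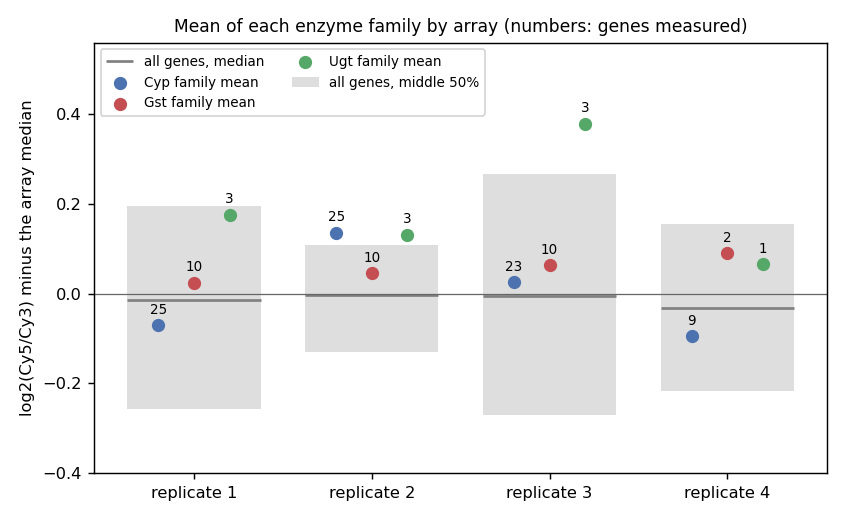
Mean centred log2(Cy5/Cy3) of the Cyp, Gst and Ugt genes on each array, with the number of genes measured above each point, the grey band spanning the 25th to 75th percentile of all genes and the grey line their median. The Cyp mean is at 0.14 on replicate 2 and between -0.10 and 0.02 on the other arrays, and the Ugt mean is above 0 on all 4.

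Among the P450s, Cyp313b1 (CG9716) had the highest mean with the signs as deposited, and its mean was -0.25, 0.21 and 0.08 with replicates 2 and 3, 2 and 4, or 3 and 4 turned. It was 0.43, 0.49 and 0.68 on replicates 1 to 3 and had no value on replicate 4, for a mean of 0.53 ± 0.13 (SD, n = 3), or 1.45-fold. All its values were above the median, and the limma adjusted p was 0.067, the lowest of any member, with 0.0228 when replicate 4 was left out of the fit of all genes. Its pair of spots did not agree closely, with centred values of 0.11 and 0.86 on replicate 2 and of 0.24 and 1.13 on replicate 3. The related Cyp313a1 (CG3360) went both ways, at -0.60, 0.67, -0.13 and 0.58, with a mean of 0.13 ± 0.61 (SD, n = 4). It was below the median on replicates 1 and 3 and above it on replicates 2 and 4.

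The CYP6 family, to which many of the insect P450s that metabolise insecticides belong, had 7 members measured, with means from -0.12 to 0.40. Cyp6a22 (CG10240) was 0.29, 0.10 and 0.82, for a mean of 0.40 ± 0.37 (SD, n = 3) and a limma adjusted p of 0.130. Its highest value was on replicate 3 and its lowest, on replicate 2, was near the median. Cyp6a21 (CG10247) was 0.41, 0.21 and 0.45, for a mean of 0.36 ± 0.13 (SD, n = 3) and a limma adjusted p of 0.0977. All its values were above the median, and the mean fell to 0.19 after subtraction of neighbouring clones. The lower members Cyp6a23, Cyp6a9, Cyp6d5 and Cyp6u1 had means from -0.12 to -0.02, and Cyp6a18 had 0.24.

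P450s of the CYP4 family, which in mammals hydroxylate fatty acids at the end of the chain, had 5 members measured, with means from -0.18 to 0.28. Cyp4p1 was the highest of them at 0.42, 0.08 and 0.35, and its mean of 0.28 became 0.06 after subtraction of neighbouring clones. Cyp4ac1 (CG14032) was -0.50, 0.21 and -0.27, for a mean of -0.18 ± 0.36 (SD, n = 3). Cyp4e2 had the same order, with -0.45 and -0.32 on replicates 1 and 3 and 0.37 on replicate 2.

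The mitochondrial P450s Cyp12a4 and Cyp12a5 had values on all arrays. Cyp12a4 (CG6042), whose overexpression is known to give resistance to the insecticide lufenuron, was -0.06, 0.04, -0.02 and -0.05, for a mean of -0.02 ± 0.05 (SD, n = 4). The value on replicate 3 held a clone whose spots were 4.31 apart, at -2.38 and 1.93, the widest gap among the members, and without it replicate 3 became 0.19 and the mean 0.03 ± 0.12. Cyp12a5 (CG11821) was 0.25, 0.10, 0.54 and -0.58, for a mean of 0.07 ± 0.48 (SD, n = 4). Replicate 4 alone was below the median. Cyp301a1, a P450 of the same mitochondrial clan needed for adult cuticle, had a like pattern at 0.25 and 0.18 on replicates 1 and 2 and -0.63 on replicate 4.

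Cyp9f2 (CG11466) had the lowest mean and the highest root mean square of the members, with replicate 1 the farthest from the median. It was -1.40, 0.04, -0.60 and 0.27, for a mean of -0.42 ± 0.75 (SD, n = 4) and a limma adjusted p of 0.267. It was far below the median on replicate 1, below it on replicate 3 and close to or above it on the other arrays, and its spots agreed within 0.24 on every array. Without replicate 1 its mean was -0.10, above the -0.22 of Cyp28c1. With signs turned in pairs it stayed below 0, from -0.58 to -0.14. Cyp9b1 (CG4485) was 0.01, 0.04, -0.06 and -0.32, for a mean of -0.08 ± 0.16 (SD, n = 4), and only replicate 4 stood away from the median. Cyp311a1 (CG1488) was 0.05, 0.06, 0.09 and -0.26, for a mean of -0.01 ± 0.16 (SD, n = 4), with the same array apart. For both genes replicate 3 rested on the first clone alone and replicate 4 on the second alone, so clone and array cannot be told apart there. On replicates 1 and 2 the second clone lay lower than the first for Cyp9b1 and higher for Cyp311a1. Cyp28d1 (CG10833), linked to nicotine resistance, was -0.12, 0.15, -0.13 and 0.19, for a mean of 0.02 ± 0.17 (SD, n = 4). Cyp28c1 (CG1895) was -0.13, 0.03 and -0.47, for a mean of -0.19 ± 0.25 (SD, n = 3), with the replicates on both sides of the median. The other P450s (Cyp309a1, Cyp9c1 and Cyp303a1, the last needed for sensory bristles) had means from -0.08 to 0.10.

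Gst genes stayed close to the median. Of the delta class, GstD1 (CG10045), which removes chlorine from the insecticide DDT, was -0.03, 0.03, 0.04 and 0.06, for a mean of 0.02 ± 0.04 (SD, n = 4). It had the lowest root mean square of the members. GstD11 (CG17639) was 0.28, 0.13 and 0.40, for a mean of 0.27 ± 0.14 (SD, n = 3) and a limma adjusted p of 0.134. GstD4 (CG11512) was 0.28, 0.14 and 0.24, for a mean of 0.22 ± 0.07 (SD, n = 3) and a limma adjusted p of 0.161. Both lay above the median on every array measured, and after subtraction of neighbouring clones both means became 0.11. GstD9 (CG10091) was -0.42, 0.08, -0.24 and 0.12, for a mean of -0.12 ± 0.26 (SD, n = 4), below the median on replicates 1 and 3 only.

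The theta class went in opposite directions by small amounts. GstT3 (CG1702) was 0.33, 0.03 and 0.39, for a mean of 0.25 ± 0.19 (SD, n = 3) and a limma adjusted p of 0.169. GstT4 (CG1681) was -0.19, -0.08 and -0.10, for a mean of -0.13 ± 0.06 (SD, n = 3). Every GstT3 value was above and every GstT4 value below the median, but after subtraction of neighbouring clones GstT4 had a mean of 0.02 and GstT3 of 0.43. In the epsilon class, GstE2 (CG17523) was 0.03, -0.03 and -0.12, for a mean of -0.04 ± 0.07 (SD, n = 3), and GstE3, GstE12 and GstE13 had means from -0.02 to 0.06.

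All 3 glycosyltransferase means were above the median with the signs as deposited, beside 48.5% of all gene means. With replicates 2 and 3 or 3 and 4 turned, the means of Ugt37B1 and Ugt301D1 fell below 0 and that of Ugt49B1 did not. Ugt37B1 (CG9481) was 0.24, 0.30, 0.64 and 0.07, for a mean of 0.31 ± 0.24 (SD, n = 4) and a limma adjusted p of 0.111. With those signs Ugt37B1 was the only member with values on all 4 arrays to lie above the median on each of them. Ugt49B1 (CG4302) was 0.34, 0.07 and 0.14, for a mean of 0.18 ± 0.14 (SD, n = 3), and Ugt301D1 (CG10178) was -0.05, 0.02 and 0.36, for a mean of 0.11 ± 0.22 (SD, n = 3). The highest of the Ugt values on replicate 1 was Ugt49B1 and on replicates 2 and 3 Ugt37B1.

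How far a gene moved in either direction was taken as the root mean square of its centred log2 ratios, which does not change with the sign given to a slide. The median over Gst genes was 0.122, over Cyp genes 0.204 and over Ugt genes 0.216, beside 0.246 over all genes. Each family median lay below that of all genes here, but the Cyp median was 0.279 beside 0.248 for all genes when 1 clone stood for each gene in place of the mean over clones. The Gst median stayed below that of all genes in all 12 alternatives that gave one, while Cyp and Ugt lay above it in 2 and 4 of them. Cyp9f2 reached 0.774, which ranked 11 of the 445 genes with values on all 4 arrays. Next came Cyp313b1 at 0.544 (94 of 1961 genes with 3 values), Cyp313a1 at 0.541 (41 of 445), Cyp6a22 at 0.507 (124 of 1961) and Cyp12a5 at 0.419 (82 of 445). At the other end of the ranks GstD1, at 0.0405, ranked 444 of 445. Cyp12a4, at 0.0459, ranked 443 of 445, but it had 0.105 without the clone value whose spots disagreed.

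**Figure D3:**
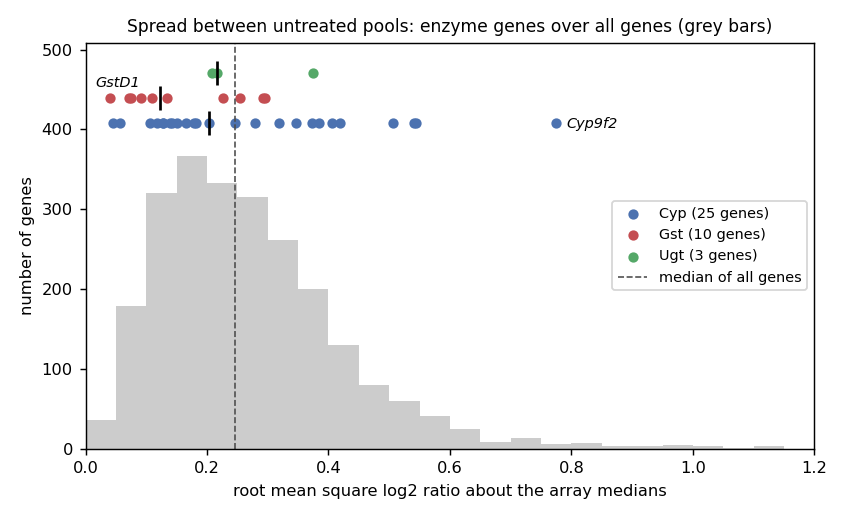
Root mean square of the centred log2 ratios of each gene (x axis) for the 2406 genes (grey bars, number of genes) and for the Cyp, Gst and Ugt genes (points, at a height chosen for display), with black ticks at the family medians and a dashed line at the median of all genes (0.246). With clones of a gene averaged the family medians, at 0.122 to 0.216, lie left of the line (Cyp at 0.279 with 1 clone per gene), Cyp9f2 lies far right at 0.774, and 5 genes beyond 1.2 are not drawn.

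Member values were most alike between replicates 1 and 3. Correlations were taken across genes, which are not independent replicates and share the array's depth and dye treatment. Pearson's r between replicates 1 and 3 was 0.75 over 36 members, of which 28 had the same sign. Over 2287 genes it was 0.74, and 1877 of them had the same sign. Between replicates 1 and 2 it was -0.03 over 38 members, where all genes gave 0.44. Between replicates 1 and 4 it was -0.66 over 12 members, of which 3 had the same sign. All genes gave -0.04 there, and 257 of 570 had the same sign. Cyp313a1, Cyp28d1, Cyp9f2 and GstD9 were below the median on replicates 1 and 3 and above it on replicates 2 and 4. The first clone of Cyp28d1 was above the median on replicates 1 to 3, and the gene's replicate 4 value came from the second clone alone. Cyp12a5 and Cyp311a1 were above the median on replicates 1, 2 and 3 and below it on replicate 4. For Cyp311a1 replicates 3 and 4 rested on different clones. The excluded Cyp4d21, a sex-biased P450 gene of the fly head, was -1.08, -0.05, -0.91 and 0.51, for a mean of -0.38 ± 0.74 (SD, n = 4) and a limma adjusted p of 0.31.

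**Figure D4:**
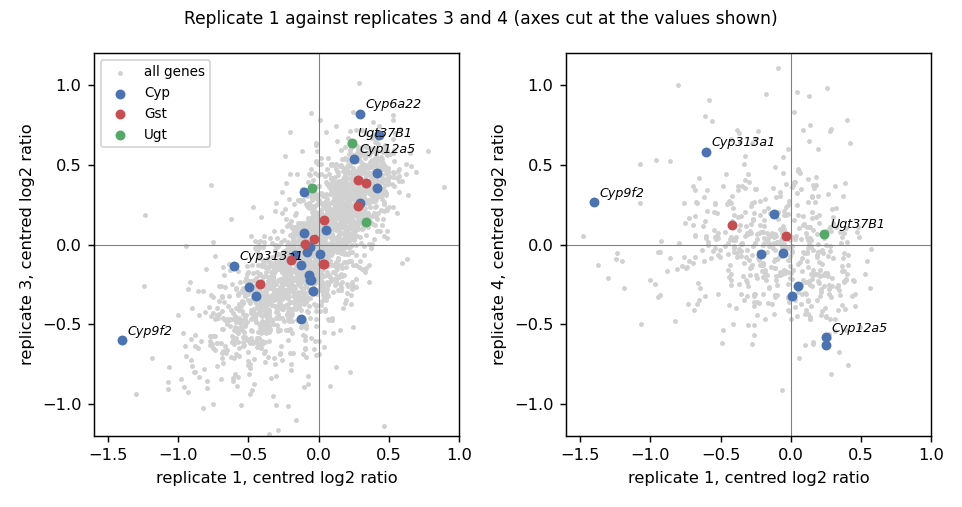
Centred log2 ratios of replicate 1 (x axis) against replicate 3 (left) and replicate 4 (right), with grey points for all genes and coloured points for Cyp, Gst and Ugt genes. Members lie along the rising cloud on the left, while on the right Cyp9f2 and Cyp313a1 lie at the upper left and Cyp12a5 at the lower right. The axes leave out 19 genes on the left and 10 on the right.

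Clones of the same gene did not always give the same value. Of the 38 genes 30 rested on 1 clone and 8 on 2, and the median absolute difference between the clones of a gene was 0.217 for the 8 members, beside 0.229 for 135 genes with 2 clones. Cyp28d1 had the widest difference, with 0.36, 0.09 and 0.19 for the first clone on replicates 1 to 3 and -0.60, 0.21 and -0.44 for the second. Cyp4ac1 followed, at -0.82, 0.01 and -0.46 for the first clone and -0.17, 0.40 and -0.08 for the second, which lay higher on every array. The clones of Cyp6a23 lay on opposite sides of the median, at 0.08, 0.08 and 0.01 against -0.25, -0.12 and -0.10. A further clone of Cyp28c1 had values on replicates 2 and 3 alone, at 1.75 and 1.64, and was left out of the gene's value by the rule of 3 arrays. With it averaged in, the mean of Cyp28c1 turned from -0.19 to 0.45. Its spots were 1.72 apart on replicate 3. Duplicate spots of the clones in use were close, with a median difference from 0.09 to 0.118 over the 4 arrays, and 1 of 146 clone values in use had spots over 1 apart, beside 54 of 13339 over all clones.

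**Figure D5:**
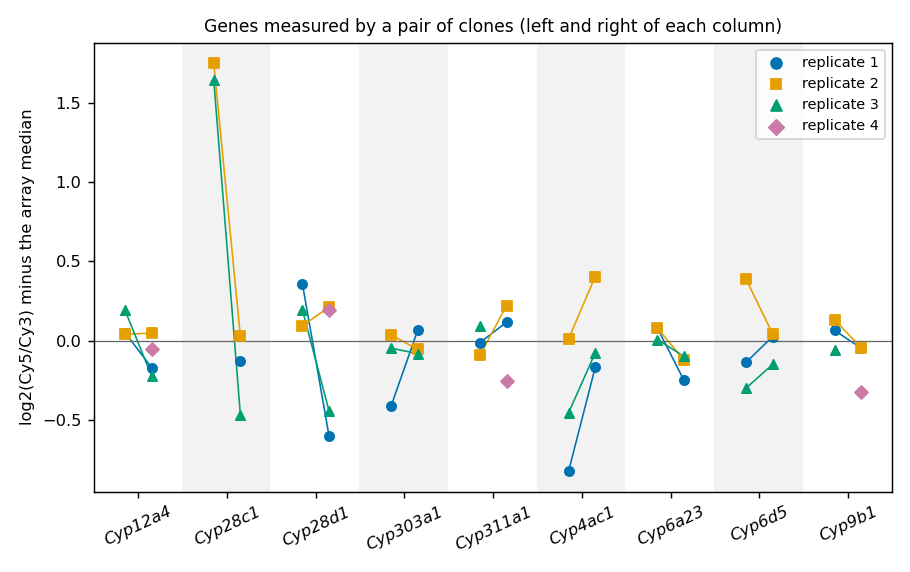
Centred log2 ratios of the 9 P450 genes with a pair of measured clones, the first clone at the left and the second at the right of each column, with a line joining the clones on an array where both had a value. Cyp28c1, whose first clone had values on 2 arrays only, Cyp28d1 and Cyp4ac1 have the longest lines.

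Mean ratios of genes that are neighbours on the chromosome were alike for some pairs and not for others. By gene order in RefSeq, Cyp6a22, Cyp6a23, Cyp6a9 and Cyp6a21 follow each other with 1 coding gene between neighbours, and their means were 0.40, -0.05, -0.08 and 0.36. GstD9 and GstD1 are adjacent and had means of -0.12 and 0.02, while GstD4 and GstD11 of the same cluster had 0.22 and 0.27. Cyp9f2 lies 6 coding genes after GstD11 and had -0.42. Cyp12a5 and Cyp12a4 are adjacent, and so are GstE2 and GstE3, at 0.07 and -0.02 and at -0.04 and 0.06. Members resembled the clones around them in the table more on replicates 1 and 3. The median of the 48 clones around a member clone ran from -0.32 to 0.25 on replicate 1 and from -0.26 to 0.36 on replicate 3, and across 46 and 42 clones it correlated with the member's own value at r = 0.39 and 0.50. On replicates 2 and 4 the medians ran from -0.10 to 0.08 and from -0.18 to 0.09, with r = -0.05 and 0.04 across 46 and 12 clones. At Cyp9f2 the surrounding medians were between -0.10 and -0.02 on all arrays. The part of table position in the values of Cyp9f2 and the other members was not tested.

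Other genes of the detoxification and redox pathways gave as few calls. Of 80 such genes listed 39 were spotted and 19 measured, 6 with a mean above and 13 below the median. limma called 0 of 19, with 1 higher and 3 lower at an unadjusted p under 0.05. Over all genes 48.5% of means lay above the median, and limma listed 13.3% higher and 17.1% lower at that p. The directions hold for the signs as deposited. MRP, of the ABC transporter family that exports glutathione conjugates, was -0.34, -0.38 and -0.34 (mean -0.36 ± 0.02, SD, n = 3, limma adjusted p 0.0836). The small Maf protein gene maf-S, whose product partners the oxidative stress regulator CncC, was -0.49, -0.33 and -0.23 (mean -0.35 ± 0.13, SD, n = 3, limma adjusted p 0.0994). The peroxiredoxin gene Prx6a was 0.50, 0.17 and 0.38 (mean 0.35 ± 0.16, SD, n = 3, limma adjusted p 0.101). Est-Q, of the esterase family, was -0.64, -0.00 and -0.33, for a mean of -0.32. Among glutathione genes the modifier subunit of glutamate-cysteine ligase, Gclm, had a mean of -0.13, the eye pigment enzyme gene se 0.14 and the thioredoxin reductase gene Trxr1 0.08. Cyt-b5-r, which passes electrons in P450 and fatty acid reactions, was -0.53, 0.38 and -0.30, low on replicates 1 and 3 and high on replicate 2.

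Some tissue marker lists also lay off the array median, with the signs as deposited. All 5 measured genes of a 16-gene digestive list had means above the median (0.10 to 0.47), as did 48.5% of all genes. The digestive list means were 0.28, 0.13 and 0.28 on replicates 1 to 3. Of the fat body list, 4 of 8 genes were measured, with list means of 0.54, 0.22, 0.43 and 0.95 on replicates 1 to 4. The yolk protein genes Yp3 and Yp2 led it at means of 1.30 and 0.52, while apolpp and Lsp2 had -0.07 and 0.05. The sex of the flies in a pool was taken from the study's description and was not tested. FASN3, the 1 measured gene of a 6-gene oenocyte list, had a mean of 0.31. Of glia 4 of 9 genes were measured (Eaat2, Gs2, alrm and Gli, list means -0.32, -0.01, -0.16 and -0.06), of photoreceptors 4 of 12 (trpl, inaD, inaC and Arr1, list means -0.05, 0.23, -0.14 and 0.21), of neurons 2 of 8, of muscle 2 of 7 and of Malpighian tubule 0 of 4. A ratio gives no level, so the measured photoreceptor, glial and neuronal genes show only that heads gave signal for them. The part of these tissues in the values of Cyp313b1, Cyp6a22, Cyp6a21, GstD11, GstD4 and the Ugt genes was not tested.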

How the data were processed

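RNA from pools of fly heads was amplified by the Eberwine method, labelled and hybridized to CDMC cDNA slides. The authors quantified spots with GenePix Pro 6.0, normalized ratios in Acuity 4.0 and ignored spots with a raw intensity under 100 and low against background. They kept spots with under 3% saturated pixels, no bad flag, an R2 of over 0.6 and a signal-to-noise ratio over 3. The deposited values are log2 ratios of Cy5 over Cy3, and their scale and centring were not common to the arrays.

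Adjacent duplicate spots were averaged into 13824 clones, of which 4208 had values on at least 3 arrays. Current symbols came from the platform annotation by Entrez identifier through a RefSeq table of Release 6, which matched 97.9% of 15218 probes. Array medians over clones were subtracted and clones of a gene averaged, for 2406 genes (445 with values on all 4 arrays). limma 3.58.1 in R 4.3.3 fitted an intercept to the 4 arrays, with empirical Bayes moderation and two-sided Benjamini-Hochberg adjustment over the 2406 genes at 0.05. A gene without a value on an array was fitted on the other 3. SAM was rebuilt with 16 sign patterns. In simulated data with 200 of 2406 genes changed, limma recovered 61.9% of changes of 0.5 in log2, 97.8% of 1 and 99.9% of 2. False calls per draw numbered 7.7, 9.0 and 9.5. The simulated noise was independent between genes and arrays and held no array or dye effects. These rates therefore do not tell what limma could find on the measured arrays.

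Members with values on all 4 arrays, the 3 highest and 3 lowest means of each family and the 5 highest root mean squares were named with all values (22 genes), with other members by ranges. Genes named outside that rule were chosen after their values were seen. The members and the lists of other genes were chosen with earlier results of these data known. Alternatives were the deposited centring, genes on all 4 arrays, 1 clone per gene, both spots required, subtraction of the median of 48 neighbouring clones, scaled arrays, turned signs of pairs of arrays, SAM, and each replicate left out. Averaging all clones, leaving out spots over 1 apart and the turned signs of single members were added after seeing the data. No sequences are given for these genes.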

Additional observations from a re-analysis of the deposited data

Results flagged for a closer look

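Of 13 sets of 4 array values examined (the 10 members with values on all 4 arrays, and the mean of each family), 1 had an array far from the others. Cyp311a1, a P450 gene, was 0.05, 0.06 and 0.09 on replicates 1 to 3 and -0.258 on replicate 4. The gap to the nearest of the others was 0.885 of the whole range. Chance alone flags about 1 of 20 sets, so a single flag among 13 carries little weight. The gene's 2 clones were both measured on replicates 1 and 2. The first clone alone gave the value on replicate 3 and the second alone that on replicate 4.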

How the results depend on the processing

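The number of calls depended on the fit. Over all genes limma called 0, and 4 with neighbouring clones subtracted, 27 without clone values whose spots were over 1 apart, and 193 were listed by SAM. With each replicate left out in turn the count ran from 0 to 215, with 11 without replicate 1, 11 without replicate 3 and 215 without replicate 4. Among members it ran from 0 to 1, the 1 being Cyp313b1 without replicate 4 and with SAM. The limma adjusted p of Cyp313b1 ran from 0.0228 to 0.17 over the alternatives that kept the signs as deposited. It was 0.727 with replicates 2 and 4 turned, and higher still with the other pairs turned. As deposited, without centring, the family means of Cyp and Gst were -0.119 and -0.0623 and the median root mean square of Gst was 0.242. With only genes measured on all 4 arrays, the Gst mean was -0.0465, Cyp minus Ugt -0.356 and Gst minus Ugt -0.357, with 1 Ugt gene left. With the signs of replicates 2 and 3 turned, the Gst mean was 0.00122, the Ugt mean -0.067, Cyp minus Ugt -0.0147 and Gst minus Ugt 0.0682. With replicates 3 and 4 turned, these were -0.0211, -0.0345, 0.0685 and 0.0134, and with replicates 2 and 4 turned the Gst mean was -0.0117. The cause of these shifts was not tested beyond what each alternative leaves out or turns. Each replicate left out gave a Cyp mean from -0.0469 to 0.0302, a Gst mean from 0.0447 to 0.0665 and a Ugt mean from 0.125 to 0.229. Of 22 named members 4 (Cyp4ac1, Cyp9f2, GstD9 and Ugt49B1) had a mean of the same sign under every alternative run, turned signs included. Their means came as near to the median as -0.00742, -0.0974, -0.0136 and 0.0408, in that order. The second clone of Cyp4ac1 alone had a mean of 0.05. The other 18 had the opposite sign under at least 1. Cyp313b1 turned to -0.247 and Cyp6a21 to -0.0827 with replicates 2 and 3 turned and kept their sign otherwise. No paired analysis was possible because the 4 arrays form 1 group and each value is already a ratio within an array. The 4 arrays and the 12 members measured on replicate 4 limit what can be told.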
